A study of Homo sapiens with 6 samples.

Results

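The genes of AP-1, a family of dimeric transcription factors, were examined in HCC-LM3 cells with and without knockdown of ASPP2. HCC-LM3 is a human hepatocellular carcinoma line with a strong tendency to metastasise in grafted mice, and ASPP2, encoded by TP53BP2, is a p53-binding protein. The members are the 16 array features that the array's annotation assigns to JUN, JUNB, JUND, FOS, FOSB, FOSL1, FOSL2 or ATF3, out of 45033 features in all. The genes were listed by name as the JUN and FOS families with ATF3, every feature of each was kept whatever its value, and each had at least 1 feature. The shNon group holds 3 cultures of HCC-LM3 infected with a lentivirus carrying a control shRNA (Lv-shNon), and the shASPP2 group holds 3 cultures infected with a lentivirus carrying an shRNA against ASPP2 (Lv-shASPP2). All were grown in serum-containing medium, and RNA was taken 1 week after infection. The cultures were separate but all of 1 cell line, and both groups carry a lentivirus. The labels name 1 knockdown virus, so every difference below is between that virus and the control virus. Features of 1 gene share transcript sequence and are not independent of each other. Each culture was hybridised to its own 1-colour (Cy3) NimbleGen array, and every value below is an RMA intensity on a linear scale, a background-corrected and between-array normalised summary of the probes of a feature.

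AP-1 is built from pairs of basic leucine zipper proteins. JUN proteins can pair with each other or with FOS proteins, FOS proteins need a JUN partner to bind DNA, and ATF3 pairs with JUN proteins or with itself. The pairs bind the TPA response element (TRE) or the related cyclic AMP response element (CRE). FOS, FOSB, JUNB and ATF3 are induced within minutes of a growth factor or stress signal and then decay, whereas JUND and the FRA proteins (from FOSL1 and FOSL2) are more lasting. In liver, JUN is needed for hepatocyte survival and regeneration.

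The promoters are shown first because AP-1 genes are themselves known targets of AP-1 and CREB-type factors. RefSeq promoter sequences (GRCh38.p14) matched 7 of the 8 genes, with 8 start sites in all. The 150 bases just upstream of the start are printed 5′ to 3′ for JUNB and ATF3, the genes with the largest measured differences between the groups, and for JUN, FOS and FOSL2 for comparison. Capitals mark matches to any of the motifs searched on both strands.
JUNB, chr19:12791336-12791485, + strand: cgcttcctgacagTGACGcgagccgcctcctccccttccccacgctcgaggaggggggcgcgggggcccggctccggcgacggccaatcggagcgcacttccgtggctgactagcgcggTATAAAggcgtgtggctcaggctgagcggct
ATF3, upstream start, chr1:212565257-212565406, + strand: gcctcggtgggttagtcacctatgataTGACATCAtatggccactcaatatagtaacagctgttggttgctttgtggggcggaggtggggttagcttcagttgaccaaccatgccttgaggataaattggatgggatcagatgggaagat
JUN, chr1:58784048-58784197, - strand: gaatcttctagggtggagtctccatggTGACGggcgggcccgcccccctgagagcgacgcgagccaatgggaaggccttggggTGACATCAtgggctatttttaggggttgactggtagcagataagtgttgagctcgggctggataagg
FOS, chr14:75278678-75278827, + strand: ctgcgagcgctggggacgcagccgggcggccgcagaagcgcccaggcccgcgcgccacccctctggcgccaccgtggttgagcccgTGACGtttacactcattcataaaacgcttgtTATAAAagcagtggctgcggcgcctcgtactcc
FOSL2, chr2:28392708-28392857, + strand: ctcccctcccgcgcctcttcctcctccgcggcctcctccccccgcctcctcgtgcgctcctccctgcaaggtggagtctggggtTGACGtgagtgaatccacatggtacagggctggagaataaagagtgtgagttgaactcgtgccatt

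The search covered 250 bases upstream of each start. The CRE core TGACG lay in 6 of the 8 promoters (JUN, JUNB, JUND, FOS, FOSB and FOSL2), and in 21.2% of 35116 promoters of the same length. The full CRE, TGACGTCA, which contains that core on both strands, was found for JUND alone, against 1.65% of all promoters. TGACATCA, the TRE variant known from the JUN promoter, lay at -67 to -60 in JUN and at -123 to -116 at the upstream start of ATF3, against 2.37% of all promoters. The consensus TRE, TGACTCA (4.20% of promoters), and the CArG box bound by serum response factor (1.16%) had no match in these windows. TATAAA lay in 4 promoters, at -31 to -26 in JUNB, -33 to -28 in FOS, -30 to -25 in FOSB and -230 to -225 at the downstream start of ATF3, against 10.7% of all promoters. These are matches of letters in a window and were not tied to binding.

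**Figure D1:**
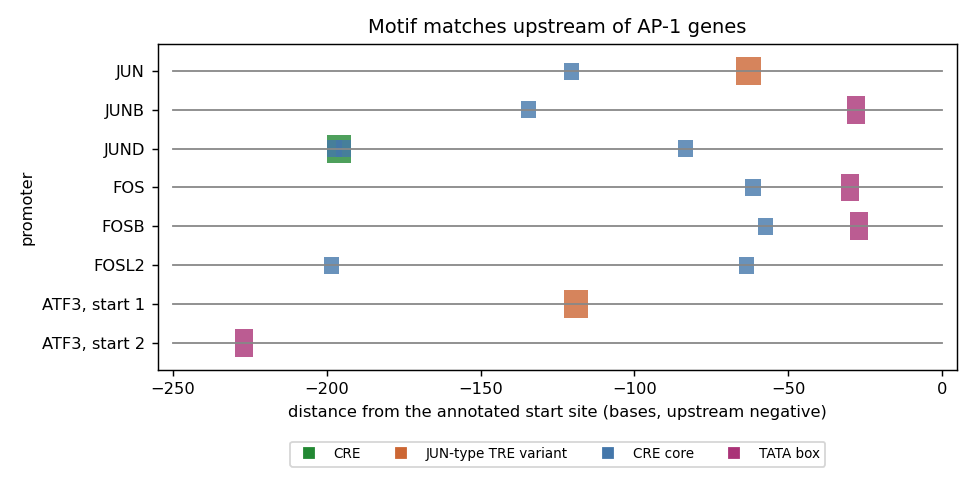
Motif matches in the 250 bases upstream of 8 annotated start sites of 7 AP-1 genes. The horizontal axis is the distance from the start in bases, each grey line is a promoter, and coloured boxes are matches of the named motif on either strand. The TRE variant is in JUN and at the first ATF3 start, and the TATA box of JUNB, FOS and FOSB lies within 33 bases of the start.

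The 6 arrays had median intensities from 111 to 122. Random-sequence probes, which match no transcript, gave a level of 31.8 to 33.3 on shNon arrays and 30.4 to 30.8 on shASPP2 arrays, and a feature is called dim here where both group means are within 2 times that level. TP53BP2 itself was lower in shASPP2 on both of its features, with log2 fold changes of -1.11 (SE 0.249) and -1.41 (SE 0.209) and no overlap between the groups' arrays, at limma adjusted p-values of 0.203 and 0.0991. Of 9 hepatocyte markers, 4 were above 2 times the random-probe level in a group (ALB, AFP, APOH and TF), while APOA1, APOB, TTR, SERPINA1 and AHSG were dim. The epithelial keratins KRT8 and KRT18 were bright, and EPCAM was dim. Above that level in a group were also 2 of 6 leukocyte markers (CD68 and LYZ) and 2 of 5 endothelial markers (PECAM1 and CDH5). So were 4 of 7 fibroblast and stellate markers (COL1A1, COL3A1, DCN and LUM) and 0 of 3 erythroid markers. The other markers of these lists, among them PTPRC, VWF and PDGFRB, were dim. Of the markers above the level, AFP and LYZ passed in shASPP2 alone, and CDH5 in shNon alone. AFP had means of 43.6 in shNon and 70.3 in shASPP2. LYZ was at 99.9, 65.1 and 36.98 on the shASPP2 arrays. CDH5 was at 68.8, 28.02 and 149 on the shNon arrays. Its other features were dim, with means of 32.1 and 39.6 in shNon and 34.8 and 33.01 in shASPP2. Expression of AFP, LYZ and CDH5 is therefore not settled. The summed endothelial level was 2025 to 2137 in shNon and 987 to 1220 in shASPP2, nearly all of it PECAM1. The summed hepatocyte level was 3731 to 4190 in shNon and 3241 to 3628 in shASPP2. The epithelial sum was 14490 to 16009 and 19577 to 23328, and the leukocyte sum 2778 to 3698 and 3708 to 4248. Most of the epithelial difference was KRT8, with means of 8766 in shNon and 14332 in shASPP2, beside 6237 and 7429 for KRT18. The other KRT18 features had log2 fold changes of 0.05, 0.04 and -0.15. Nearly all of the leukocyte sum was CD68, whose own arrays overlapped between the groups. The fibroblast and stellate sum (505 to 717 and 609 to 744) and the erythroid sum (99.6 to 132 and 87.7 to 185) overlapped between the groups. Their part in the AP-1 values was not tested.

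Across the family, JUNB and the brighter ATF3 features had the largest differences, with higher mean intensities after ASPP2 knockdown. FOSL1, FOSL2 and JUN had smaller positive differences, and FOS and FOSB had lower means than the control. JUNB was 2.18-fold and ATF3 1.89-fold higher on the brightest feature of each. No member passed an adjusted p of 0.05 in limma, where 0.138% of all features did. An unadjusted p under 0.05 was reached by 5 of the 16 features (JUNB, FOSL1, FOSL2 and 2 of ATF3), all higher in shASPP2, against 5.7% of all features in that direction. The groups' arrays did not overlap for 5 features, all higher in shASPP2, against 9.46% of all features, and no member was lower without overlap, against 9.17% of all features. The 5 without overlap belong to JUNB, JUND, FOSL1 and ATF3, the last with 2 features. Log2 fold changes, always shASPP2 minus shNon, were positive for 12 of the 16 features, against 51.1% of all features. Their median was 0.44, with a median of 0.01 over all features. The median depended on 1 control array, since it was 0.23 without shNon array 1, with 11 of 16 features positive and 5 higher without overlap, where 13.9% of all features were. In a bulk culture, a change in the number of cells that express a gene and a change in RNA per cell cannot be told apart.

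**Figure D2:**
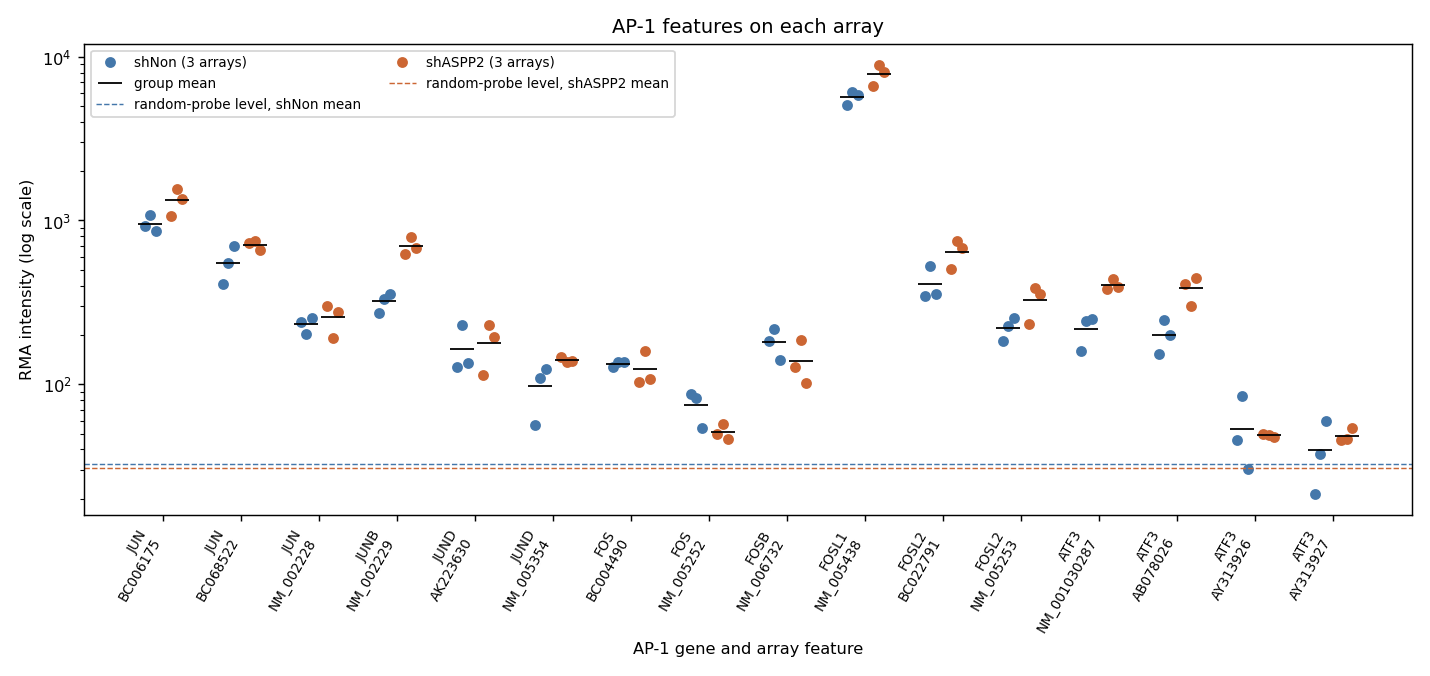
RMA intensity (log axis) of the 16 AP-1 features, with a point for each of 3 shNon (blue) and 3 shASPP2 (orange) arrays, a black bar for the group mean and dashed lines for the random-probe level. JUNB, FOSL1, the dimmer JUND feature and the 2 brighter ATF3 features separate the groups, and the 2 other ATF3 features lie near the random-probe level.

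JUNB, a JUN protein that often restrains proliferation and antagonises JUN, had 1 feature (NM_002229, chromosome 19, 12763309 to 12765125, hg18). Its intensity was 273, 332 and 357 on the shNon arrays and 624, 792 and 682 on the shASPP2 arrays. The lowest shASPP2 array was well above the highest shNon array, and the means were 321 ± 43.1 and 699 ± 85.4 (SD, n = 3). The log2 fold change was 1.13 (SE 0.194, 95% interval 0.67 to 1.58), with a limma unadjusted p of 5.33e-04 and an adjusted p of 0.129 over all features. The exact two-sided permutation test gave p = 0.1, the smallest that 3 arrays against 3 allow. Leaving out any 1 array left the change between 1.01 and 1.21. JUNB passed where limma used trend and robust variance (adjusted p = 0.00322), alone among the 16 features, where 1.02% of all features passed upwards. It also passed when only features above the median level were tested (adjusted p = 0.0237), again alone among the 13 member features kept, where 0.697% of the features kept passed upwards. Over all 16 alternatives its adjusted p was between 0.00322 and 0.495.

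JUN, the founding and strongest activating JUN protein, had 3 features on chromosome 1 between 59019050 and 59022373 (hg18). The brightest, BC006175, was at 927, 1075 and 867 on the shNon arrays and at 1061, 1562 and 1355 on the shASPP2 arrays. The groups overlapped narrowly, with shNon array 2 above shASPP2 array 1, and the log2 fold change was 0.46 (SE 0.209, 95% interval -0.03 to 0.95; limma adjusted p = 0.469). The other JUN features had 0.40 (SE 0.230) and 0.12 (SE 0.228), with overlap on both. The last of these, NM_002228, was at -0.01 without shASPP2 array 1, so its direction rested on that array.

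JUND, the most constant JUN protein in many tissues, had 2 features on chromosome 19 between 18251569 and 18253468 (hg18), and they differed. On NM_005354 the intensity was 56.6, 110 and 125 in shNon and 147, 137 and 139 in shASPP2. No array overlapped, but shNon array 1 stood well below its group, and the log2 fold change of 0.62 (SE 0.304, 95% interval -0.09 to 1.33; limma adjusted p = 0.498) was 0.27 without it. The brighter AK223630 ranged from 127 to 229 in shNon and from 114 to 231 in shASPP2, with a log2 fold change of 0.13 (SE 0.338), which turned to -0.03 without shNon array 1 and to -0.08 without shASPP2 array 2. These features gave no settled direction for JUND.

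**Figure D3:**
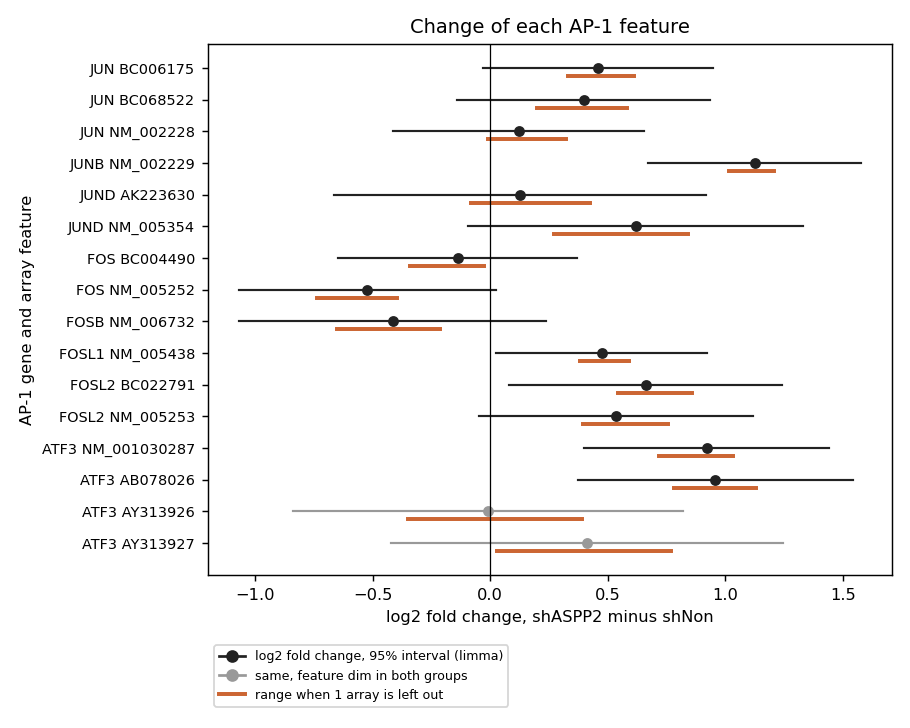
Log2 fold change (shASPP2 minus shNon) of each AP-1 feature with limma's 95% interval, in grey for features that were dim in both groups. The orange bar under each spans the values with any 1 array left out. The JUNB interval, 0.67 to 1.58, and those of the 2 brighter ATF3 features lie furthest to the right.

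FOS, the prototype immediate early gene, was low and did not share the direction of JUNB. Its brighter feature (BC004490, chromosome 14, 74815312 to 74818404, hg18) was at 128, 138 and 136 in shNon and at 104, 161 and 108 in shASPP2. The shNon arrays lay close together and the shASPP2 arrays on both sides of them, with a log2 fold change of -0.14 (SE 0.218, 95% interval -0.65 to 0.37; limma adjusted p = 0.843). The other FOS feature, NM_005252, was at 87.2, 82.7 and 54.1 in shNon and at 49.98, 56.9 and 46.3 in shASPP2, where its mean of 51.0 ± 5.40 (SD, n = 3) was within 2 times the random-probe level. Its log2 fold change of -0.52 (SE 0.234, 95% interval -1.07 to 0.02) is therefore measured against a dim group. FOSB, a close relative of FOS, was at 183, 218 and 141 in shNon and at 127, 186 and 101 in shASPP2 (NM_006732, chromosome 19, 50663092 to 50670276, hg18). Its groups overlapped, and the log2 fold change was -0.41 (SE 0.279, 95% interval -1.07 to 0.24; limma adjusted p = 0.616). Both FOS features and FOSB stayed negative whichever array was left out, and after median centring or cyclic loess. BC004490 was only barely so, at -0.03 without shASPP2 array 1 and -0.05 without shASPP2 array 3, so its direction is not settled.

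FOSL1, which encodes FRA-1, a FOS protein linked to invasion in many carcinomas, was the brightest member feature and lay at percentile 97.4 of all features. Its single feature (NM_005438, chromosome 11, 65416267 to 65424573, hg18) was at 5034, 6074 and 5799 in shNon and at 6630, 8844 and 8104 in shASPP2. The groups did not overlap, although shASPP2 array 1 lay near the highest shNon array. The means were 5635 ± 539 and 7860 ± 1127 (SD, n = 3), and the log2 fold change was 0.47 (SE 0.191, 95% interval 0.03 to 0.92; limma adjusted p = 0.415, and 0.0641 with trend and robust variance). FOSL2, which encodes FRA-2, had 2 features on chromosome 2 between 28469282 and 28491020 (hg18) that pointed the same way. BC022791 was at 346, 531 and 357 in shNon and at 507, 750 and 682 in shASPP2, with overlap through shNon array 2 and shASPP2 array 1. The difference on the log2 scale was 0.66 (SE 0.249, 95% interval 0.08 to 1.24; limma adjusted p = 0.387), and that of NM_005253 was 0.54 (SE 0.249).

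ATF3, a stress-induced factor that often represses transcription as a homodimer, had 4 features on chromosome 1 between 210805373 and 210860740 (hg18). NM_001030287 was at 160, 242 and 249 in shNon and at 382, 440 and 390 in shASPP2, so that all shASPP2 arrays lay above all shNon arrays. The difference on the log2 scale was 0.92 (SE 0.223, 95% interval 0.40 to 1.44), with a limma unadjusted p of 0.00388 and an adjusted p of 0.228. AB078026 gave a like picture, at 153, 246 and 199 in shNon and 412, 299 and 445 in shASPP2, with 0.96 (SE 0.251, 95% interval 0.37 to 1.54; limma adjusted p = 0.254). Neither passed with trend and robust variance, with adjusted p-values of 0.0556 and 0.0616. The features AY313926 and AY313927 were dim, at 53.6 ± 28.2 and 39.6 ± 19.3 in shNon and 48.7 ± 0.860 and 48.6 ± 4.59 in shASPP2 (SD, n = 3), close to the random-probe level. Their log2 fold changes of -0.01 and 0.41 are no reliable measure of ATF3, and that of AY313926 ran from -0.35 to 0.39 over the fits lacking 1 array.

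Changes of different members were then set against each other within arrays, on the brightest feature of each gene, for 28 pairs. The pairs below were chosen after their values were seen. The JUNB minus FOS difference in log2 intensity was 1.10, 1.27 and 1.39 on the shNon arrays and 2.59, 2.30 and 2.66 on the shASPP2 arrays, so that the change of JUNB exceeded that of FOS by 1.27. JUNB also exceeded JUN by 0.67, with JUN minus JUNB going from 1.58 ± 0.261 to 0.912 ± 0.127 (SD, n = 3). FOS minus FOSL1 went from -5.39 ± 0.0844 to -6.01 ± 0.226, so that the change of FOS was 0.61 below that of FOSL1. The groups did not overlap in these 3 pairs, as in 17 of the 28. Each of the 17 gave an exact two-sided permutation p of 0.1, the smallest possible, and 0.165 after Benjamini-Hochberg adjustment over the 28 pairs. All pairs reuse the features of the same 8 genes, so they are not independent of each other. The share without overlap among pairs of other features was not computed, so 17 of 28 has no background beside it. By contrast, JUN minus FOSL1 differed between the groups by -0.02 (exact permutation p = 0.9), with arrays that overlapped. A difference between 2 features within an array shows unequal change only, since their levels are not on a common scale.

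Single arrays left a mark on the family as a whole. Within shNon, array 1 was the lowest for 11 of the 16 features, against 39.0% of all features. Within shASPP2, array 2 was the highest for 11 and array 1 the lowest for 9, against 36.1% and 35.2% of all features. The median SD of the members was 0.34 log2 in shNon and 0.25 in shASPP2, beside 0.31 and 0.23 for all features. JUNB had 0.20 and 0.17, and the spread of NM_001030287 for ATF3 was 0.35 in shNon and 0.11 in shASPP2. Over all features, the shNon arrays had mean correlations of 0.962 to 0.969 with their own group and 0.962 to 0.978 with the shASPP2 arrays. The shASPP2 arrays had 0.983 to 0.984 with their own group. The lowest array weight in limma was that of shNon array 3 (0.496), with 0.808 for shNon array 1. The labels give no batch, so no within-batch value could be had.

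**Figure D4:**
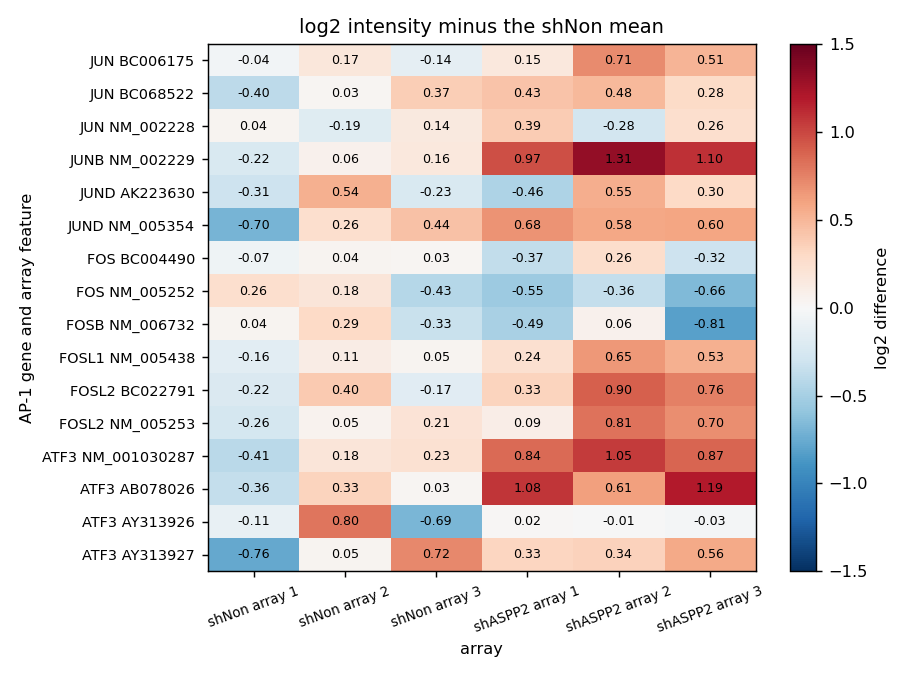
Log2 intensity of each AP-1 feature on each array minus the mean of the 3 shNon arrays, in red where higher and blue where lower. JUNB is between 0.97 and 1.31 on the shASPP2 arrays, and shNon array 1 is below its group's mean for most features.

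The genes around AP-1 were read from 4 lists, with the brightest feature standing for a gene. None of the 97 genes passed an adjusted p of 0.05 in limma, where 0.14% of all brightest features did. Among 20 dimer partners and related basic leucine zipper genes the median log2 fold change was 0.04, and 3 were higher and 0 lower without overlap between the groups, against 9.3% and 9.52% of all brightest features. An unadjusted p under 0.05 was reached by 2 in the higher and 0 in the lower direction, against 5.61% and 6.04% of all brightest features. CEBPB, an acute-phase activator in liver, was at 520, 581 and 701 in shNon and at 959, 1196 and 882 in shASPP2 (log2 fold change 0.75, SE 0.206, limma adjusted p = 0.268). ATF7, a partner of JUN, had a log2 fold change of 0.44 (SE 0.212). Of 28 upstream kinases and activators, 4 were higher and 1 lower without overlap, where 9.3% and 9.52% of all brightest features were. The median was 0.08. Against the shares of 5.61% and 6.04% above, 1 gene had an unadjusted p under 0.05. That was MRTFA, the actin-regulated partner of serum response factor, at 116 ± 12.9 and 208 ± 23.8 (SD, n = 3; log2 fold change 0.84, SE 0.185, limma adjusted p = 0.198). The kinase gene MAPK7 (ERK5) had a log2 fold change of 0.41 (SE 0.202).

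Of 29 target genes of AP-1, 22 had a positive log2 fold change, against 50.7% of all brightest features, and the median was 0.17. Without overlap between the groups 6 were higher and 3 lower, where 9.3% and 9.52% of all brightest features were. At an unadjusted p under 0.05, 3 were higher and 2 lower, where 5.61% and 6.04% of all brightest features were. MMP1, the interstitial collagenase and a textbook TRE-driven gene, was at 3165, 2979 and 2918 in shNon and at 6251, 6430 and 5582 in shASPP2. All shASPP2 arrays were far above all shNon arrays, with a log2 fold change of 1.01 (SE 0.166, limma adjusted p = 0.122, and 6.53e-05 with trend and robust variance). IL6, the acute-phase cytokine, had 0.91 (SE 0.266) from a low shNon mean of 80.5 ± 27.2 (SD, n = 3). PLAU, which encodes urokinase, went the other way, at 640, 674 and 580 in shNon and 366, 451 and 473 in shASPP2 (log2 fold change -0.56, SE 0.184, limma adjusted p = 0.338), and its other feature had -0.45. Of 20 other immediate early genes 13 had a positive log2 fold change, and the median was 0.31. Without overlap 8 were higher and 1 lower, and at an unadjusted p under 0.05, 4 were higher and 2 lower, to be read against the same shares of all brightest features. The mRNA-decay factor gene ZFP36L1 was at 3662 ± 337 and 5610 ± 449 (SD, n = 3; log2 fold change 0.62, SE 0.175, limma adjusted p = 0.280) and KLF6, a zinc finger factor, had 0.57 (SE 0.189). TNFAIP3, the NF-kB inhibitor A20, had -0.51 (SE 0.190). With trend and robust variance 4 of the 97 genes passed, against 2.28% of all brightest features, namely CEBPB, MMP1, ZFP36L1 and the hyaluronan receptor gene CD44 (0.55), the last outside the rule. With 1 array left out the target median lay between 0.12 and 0.24 and that of the other immediate early genes between 0.23 and 0.38. The upstream median turned to -0.01 without shASPP2 array 1, and the dimer partner median to -0.06 without shNon array 2.

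**Figure D5:**
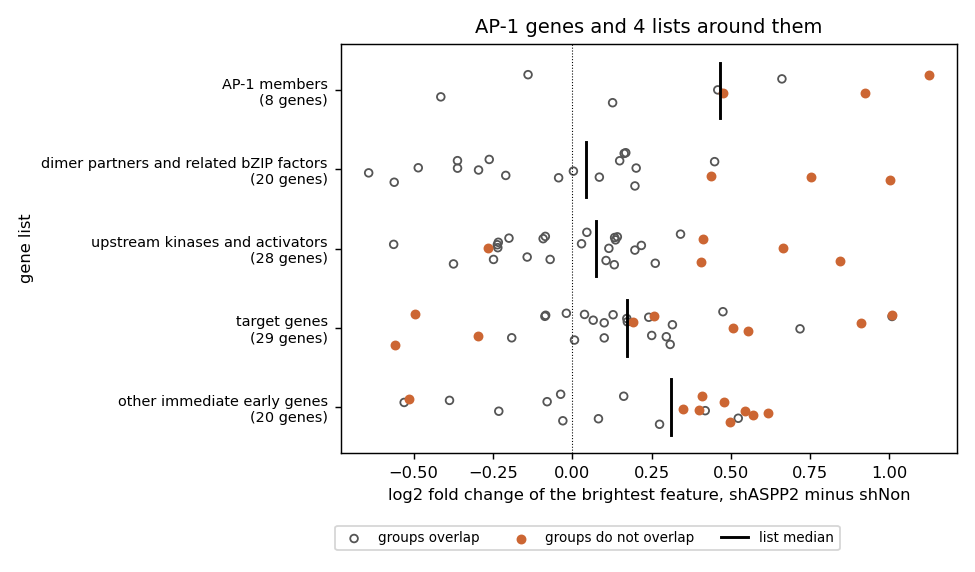
Log2 fold change (shASPP2 minus shNon) of the brightest feature of each gene for the 8 AP-1 genes and 4 lists around them, with vertical position within a list only spreading the points. Filled points are genes whose groups did not overlap and black bars are list medians, from 0.04 for dimer partners to 0.47 for the 8 AP-1 genes.

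The genes whose pattern over the 6 arrays was most like those of JUNB and ATF3, the 2 members with the smallest p, were sought among 10945 genes above the median level. The measure was the root mean square difference in log2 intensity after centring each feature on its own mean. Closest to JUNB were SQLE (0.10), PNPLA3 (0.11), TAX1BP3 (0.12) and PITX1 (0.12), and closest to ATF3 were MYEOV (0.07), TAX1BP3 (0.07), LETM1 (0.08) and H4C15 (0.10). SQLE, the squalene epoxidase gene, was at 1560, 1730 and 1864 in shNon and at 3550, 3654 and 3605 in shASPP2. TAX1BP3, on both lists, was at 508, 725 and 675 and at 1191, 1331 and 1213. The choice by likeness fixes that these genes share the group difference and much of the array order of JUNB and ATF3, so their values are a description. None of the 7 passed an adjusted p of 0.05 in limma over all features. With trend and robust variance, where JUNB passed and ATF3 did not, all 7 but H4C15 passed (H4C15 adjusted p = 0.130). In that setting 2.28% of all brightest features passed.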

How the data were processed

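RNA of 6 HCC-LM3 cultures was hybridised to 1-colour NimbleGen arrays. The authors deposited 1 linear intensity per feature and array. The submitters' processing notes name RMA as the method, without version or settings. RMA pulls dim features towards a floor and so understates their fold changes. Of 45033 features, 45031 were summarised from 3 probes each, and 1 row of 2508 random-sequence probes served as the level of unspecific signal. The series' value table, also deposited, differed from these in 0 cells.

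Log2 of the deposited intensities was fitted for all features with limma 3.58.1 (lmFit, eBayes) under R 4.3.3, on a design holding the group alone. Two-sided p-values were Benjamini-Hochberg adjusted over all 45033 features, with a threshold of 0.05, and SE is the moderated standard error. The code of the fit was run on data simulated from limma's own variance model, which does not test that model on these arrays. Symbols came from RefSeq gene identifiers, positions of features are on hg18 as in the files, and promoters are RefSeq's on GRCh38.p14. Precision is limited by having 3 arrays in each group. The labels state no pairing of cultures, so the arrays were treated as unpaired. With 3 arrays in each group, the correlations of same-numbered arrays given below cannot exclude pairing.

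The members and lists were chosen with earlier results of these data known. The rule names all AP-1 features, the 3 members of each list with the smallest p and any past the threshold, and the 4 genes most like each of the 2 AP-1 genes with the smallest p. Some list genes that the rule names are not reported here. Alternatives were the value table, cyclic loess, median centring, array weights, a mean-variance trend with robust estimation, filters at 2 times the random-probe level and at the median level, a replicate block, 1 feature per gene, a pseudocount of 16, and leaving out each array.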

Additional observations from a re-analysis of the deposited data

How the results depend on the processing

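The count of 0 AP-1 features past the threshold in limma (5 at an unadjusted p under 0.05) became 1, JUNB, with trend and robust variance and with features above the median level only, and stayed 0 otherwise. For the genes of the 4 lists the count of 0 became 1 with features above 2 times the random-probe level, 2 above the median level and 4 with trend and robust variance. Over all features the count of 62 was 136 and 405 with those filters and 952 with trend and robust variance. It was 120 with a pseudocount of 16 and 24 with 1 feature per gene. The filters kept 28326 and 22516 features, and 1 feature per gene kept 23593, of which 33 had passed in the main fit. The causes of these shifts were not tested. With arrays left out the count over all features was between 0 and 17 (0 without any of the shASPP2 arrays, with 3317 to 3817 features at an unadjusted p under 0.05). The median of the AP-1 features was between 0.23 (without shNon replicate 1) and 0.54 with arrays left out. Single features reversed only there. JUND AK223630 spanned -0.084 to 0.42 (-0.03 without shNon replicate 1) and JUN NM_002228 -0.010 to 0.32. The dim ATF3 AY313926 spanned -0.35 to 0.39 (reversed at 0.39 and 0.01). Besides leaving out arrays, only median centring, cyclic loess, array weights and the pseudocount could have changed a direction.

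With the replicate block 0 features passed in limma (smallest adjusted p = 0.133, 4212 at an unadjusted p under 0.05), and JUNB had an adjusted p of 0.417. The shared numbers are not stated to pair cultures, so that the block is not a test of pairing. Deviations of same-numbered arrays correlated at 0.06, -0.08 and -0.13, beside -0.09 to 0.14 for differently numbered arrays. Of 243 values of single AP-1 features under the alternatives, 236 kept direction and side of the threshold, 2 newly passed (JUNB) and 5 reversed. Many of the 243 could not reverse, because their settings leave the fold change of a feature as it was. These settings are the value table, the level filters, trend and robust variance, the replicate block and the brightest feature of each gene. With the value table, which held the same intensities, the side of the threshold was fixed too. The 236 therefore does not measure how stable the directions were.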
